A study of Mus musculus with 12 samples.

Results

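The genes described here are 10 smooth muscle and peritubular myoid genes, *Acta2*, *Myh11*, *Tagln*, *Cnn1*, *Des*, *Myocd*, *Lmod1*, *Actg2*, *Mylk* and *Smtn*, out of the 35976 gene symbols counted in 12 libraries of mouse embryonic testis. They were taken by symbol, and the list was chosen by how their counts differed between the 4 groups of these same libraries, so their differences between groups are given as a description. RNA was sequenced at E15.5 from pools of testes of 3 embryos each, with 3 pools in each group. The mice were outbred Swiss (RjOrl). The F0 mothers received thiacloprid (*thia*), a neonicotinoid insecticide, at 6 mg/kg/day by gavage in olive oil between E6.5 and E15.5, or the oil alone as control. F1 embryos were exposed in the womb, whereas F3 embryos descended from those F0 mothers through F1 and F2 males crossed with untreated females and were not exposed themselves. Breeding from F0 to F3 was run in 2 independent rounds of treatment, and the labels do not give the round of a pool. The 4 groups are therefore F1 control, F1 *thia*, F3 control and F3 *thia*, all without any transgene or deletion.

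Smooth muscle contracts by the sliding of a smooth muscle myosin along actin filaments, after myosin light chain kinase has phosphorylated the light chain of the myosin. Many of its genes are controlled by serum response factor, which binds the CArG box and is helped there by myocardin. In the testis, peritubular myoid cells form a contractile layer around the cords that become seminiferous tubules, and vessel walls and the testis capsule hold smooth muscle as well. In bulk RNA, fewer cells of a type and less RNA per cell cannot be told apart.

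Promoter letters are shown for 3 members, *Acta2*, whose F3 groups overlapped, and *Lmod1* and *Mylk*, which were higher in every F3 *thia* than in every F3 control pool. The RefSeq promoter table (build GRCm38.p6, the assembly of mm10) matched 6 members, *Des*, *Lmod1*, *Cnn1*, *Smtn*, *Mylk* and *Acta2*, and did not match *Myh11*, *Tagln*, *Myocd* and *Actg2*. Below are the 250 bases before the RefSeq start of *Acta2* (chr19:34255374-34255623, minus strand), *Lmod1* (chr1:135324563-135324812, plus strand) and *Mylk* (chr16:34784700-34784949, plus strand), 5′ to 3′. The *Mylk* window lies inside the gene, which begins at chr16:34745210 in GENCODE M21, so it precedes an inner start and not the first of its several starts. Capitals mark windows that match the CArG box with at most 1 base off, and the letters CATTCC on either strand, which form the MCAT element known to be bound by TEAD factors.
Acta2: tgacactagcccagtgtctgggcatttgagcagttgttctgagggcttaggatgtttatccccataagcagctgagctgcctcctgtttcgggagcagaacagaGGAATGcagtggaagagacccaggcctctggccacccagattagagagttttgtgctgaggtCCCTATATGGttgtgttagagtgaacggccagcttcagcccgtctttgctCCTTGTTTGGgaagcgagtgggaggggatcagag
Lmod1: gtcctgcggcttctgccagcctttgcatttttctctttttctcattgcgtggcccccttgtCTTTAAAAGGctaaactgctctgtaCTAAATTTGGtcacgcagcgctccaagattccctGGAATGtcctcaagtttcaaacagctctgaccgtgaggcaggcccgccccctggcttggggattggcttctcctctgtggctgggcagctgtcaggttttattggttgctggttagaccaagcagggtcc
Mylk: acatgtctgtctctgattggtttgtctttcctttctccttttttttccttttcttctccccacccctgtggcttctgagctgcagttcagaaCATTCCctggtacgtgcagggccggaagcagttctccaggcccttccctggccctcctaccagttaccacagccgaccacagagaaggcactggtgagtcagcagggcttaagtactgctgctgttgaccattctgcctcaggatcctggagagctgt
The exact CArG box was in none of the 6 matched windows, searched over 300 bases each, and in 1.63% of all 32851 RefSeq windows of that length. With at most 1 base off, a limit chosen after the letters were seen, *Acta2* held the windows CCCTATATGG, 84 bases before the start, and CCTTGTTTGG, 34 bases before it. *Lmod1* held CTTTAAAAGG at 189 bases and CTAAATTTGG at 164 bases before its start. Of all windows, 21.1% held at least 1 such match and 3.7% held 2 or more, so these 2 members are described by them and nothing is drawn from them. The letters CATTCC, on either strand, were in 4 of the 6 members (*Acta2*, *Lmod1*, *Mylk* and *Smtn*) and in 14.7% of all windows, and no marked CArG window overlapped them.

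Total counts per library ranged from 25081647 to 68996146. Levels are in CPM, counts scaled by TMM to a common library total, and 1 CPM was at least 26.97 counts. The SD of a mean is that over the 3 pools of the group. All 10 members passed the low-count filter in both generations, and their lowest count in any library was 102, for *Lmod1* in F3 control replicate 1. None of the 100-base windows of their transcripts occurred in another gene, *Acta2* and *Actg2* included, but exons of *Tagln*, *Des*, *Mylk* and *Smtn* overlap genes on the opposite strand, whose reads cannot be told apart where counting ignored the strand. Markers of the labelled tissue were present, with *Amh* of Sertoli cells at 171 to 928 CPM and *Cyp17a1* of fetal Leydig cells at 882 to 3630 CPM. Of the 12 libraries, 2 stood apart. F1 *thia* replicate 2 held a summed level of 841 CPM over 16 skeletal muscle markers, against 73.9 to 151.6 CPM in the other F1 pools. F3 *thia* replicate 2 differed from the other F3 *thia* pools by a chi-square per degree of freedom of 90.7 and 100.9, where the other replicate pairs of all groups gave 17.3 to 42.2.

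Per kilobase of exon, the members covered a wide range in embryonic testis. Over the 12 libraries the level was 276 ± 39.8 RPKM (SD, n = 12) for *Acta2*, the smooth muscle alpha actin, and 169 ± 73.8 RPKM for *Tagln*, which encodes the actin-binding transgelin. These were followed by *Mylk* at 22.3 ± 2.69 RPKM and *Smtn* at 14.7 ± 1.65 RPKM. Then came *Des* at 12.9 ± 4.89, *Actg2* at 9.57 ± 2.58, *Cnn1* at 6.50 ± 1.68, *Myh11* at 6.42 ± 1.54, *Myocd* at 3.00 ± 0.893 and *Lmod1* at 1.31 ± 0.392 RPKM. Over all 12 libraries, *Tagln* and *Mylk*, and *Mylk* and *Smtn*, were neighbours in this order whose ranges did not meet, and the 7 other neighbouring pairs overlapped. In F1 control pools alone *Actg2*, *Des* and *Myh11*, at 7.20, 7.17 and 6.46 RPKM, overlapped and every other neighbour was apart. Per length of the longest transcript, the order over the 12 libraries was the same, but in F1 control *Des*, at 8.88 RPKM, came before *Actg2*, at 8.41 RPKM, and *Cnn1* and *Myocd* overlapped. In F3 control pools *Des*, at 17.04 RPKM by exons, followed *Mylk* and overlapped it, and *Cnn1*, at 7.35 RPKM, was above *Myh11*, at 4.57 RPKM.

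*Myh11* encodes the smooth muscle myosin heavy chain, the motor of the contractile filament. Its level was 46.2, 46.2 and 54.8 CPM in F1 control replicates 1 to 3, and 48.5, 47.8 and 45.1 CPM in F1 *thia*. In F3 it was 27.9, 37.9 and 38.4 CPM in control and 69.5, 58.1 and 65.1 CPM in *thia* pools. All 3 F3 *thia* pools lay above every other pool of the series, and all 3 F3 control pools below every F1 pool. The log2 fold change of *thia* over control was -0.04 (SE 0.099) in F1 and 0.88 (SE 0.14) in F3, and it was 0.95 (SE 0.14) in F3 without *thia* replicate 2.

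*Lmod1* encodes leiomodin, which starts new actin filaments in smooth muscle. It was counted at 4.08, 4.05 and 6.27 CPM in F1 control and at 5.92, 4.26 and 4.54 CPM in F1 *thia* pools. F3 control pools held 3.16, 4.99 and 3.53 CPM, and F3 *thia* pools 6.84, 8.37 and 6.22 CPM. As for *Myh11*, the F3 groups did not overlap, but F1 control replicate 3 lay within the range of the F3 *thia* pools. The log2 fold change was 0.06 (SE 0.22) in F1 and 0.87 (SE 0.22) in F3, and 0.74 (SE 0.22) in F3 without *thia* replicate 2.

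*Mylk*, the myosin light chain kinase, was at 275, 231 and 287 CPM in F1 control and at 270.5, 254 and 252 CPM in F1 *thia*. In F3 the control pools held 191, 219 and 218 CPM and the *thia* pools 255, 282 and 279 CPM. The F3 *thia* pools were all above F3 control and within the range of F1 control. The log2 fold change was -0.01 (SE 0.10) in F1 and 0.38 (SE 0.087) in F3, and 0.35 (SE 0.099) without F3 *thia* replicate 2. The gene has several starts, and its counts add the transcripts of all of them.

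*Smtn*, which encodes the actin-associated smoothelin, and *Myocd*, the coactivator myocardin, differed less between control and *thia*. *Smtn* was at 70.4, 67.9 and 61.3 CPM in F1 control, 68.1, 69.9 and 65.3 CPM in F1 *thia*, 45.8, 62.7 and 59.0 CPM in F3 control and 60.7, 68.1 and 72.5 CPM in F3 *thia*. Its F3 groups overlapped, with a log2 fold change of 0.26 (SE 0.13), and in F1 it was 0.04 (SE 0.087). *Myocd* was at 28.0, 20.2 and 24.8 CPM in F1 control, 28.1, 21.97 and 17.9 CPM in F1 *thia*, 10.0, 15.6 and 14.6 CPM in F3 control and 14.0, 15.1 and 20.8 CPM in F3 *thia*. For *Myocd* the groups overlapped in both generations, with a log2 fold change of -0.09 (SE 0.17) in F1 and 0.31 (SE 0.22) in F3. All F1 control pools of *Myocd* lay above all F3 control pools.

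**Figure D1:**
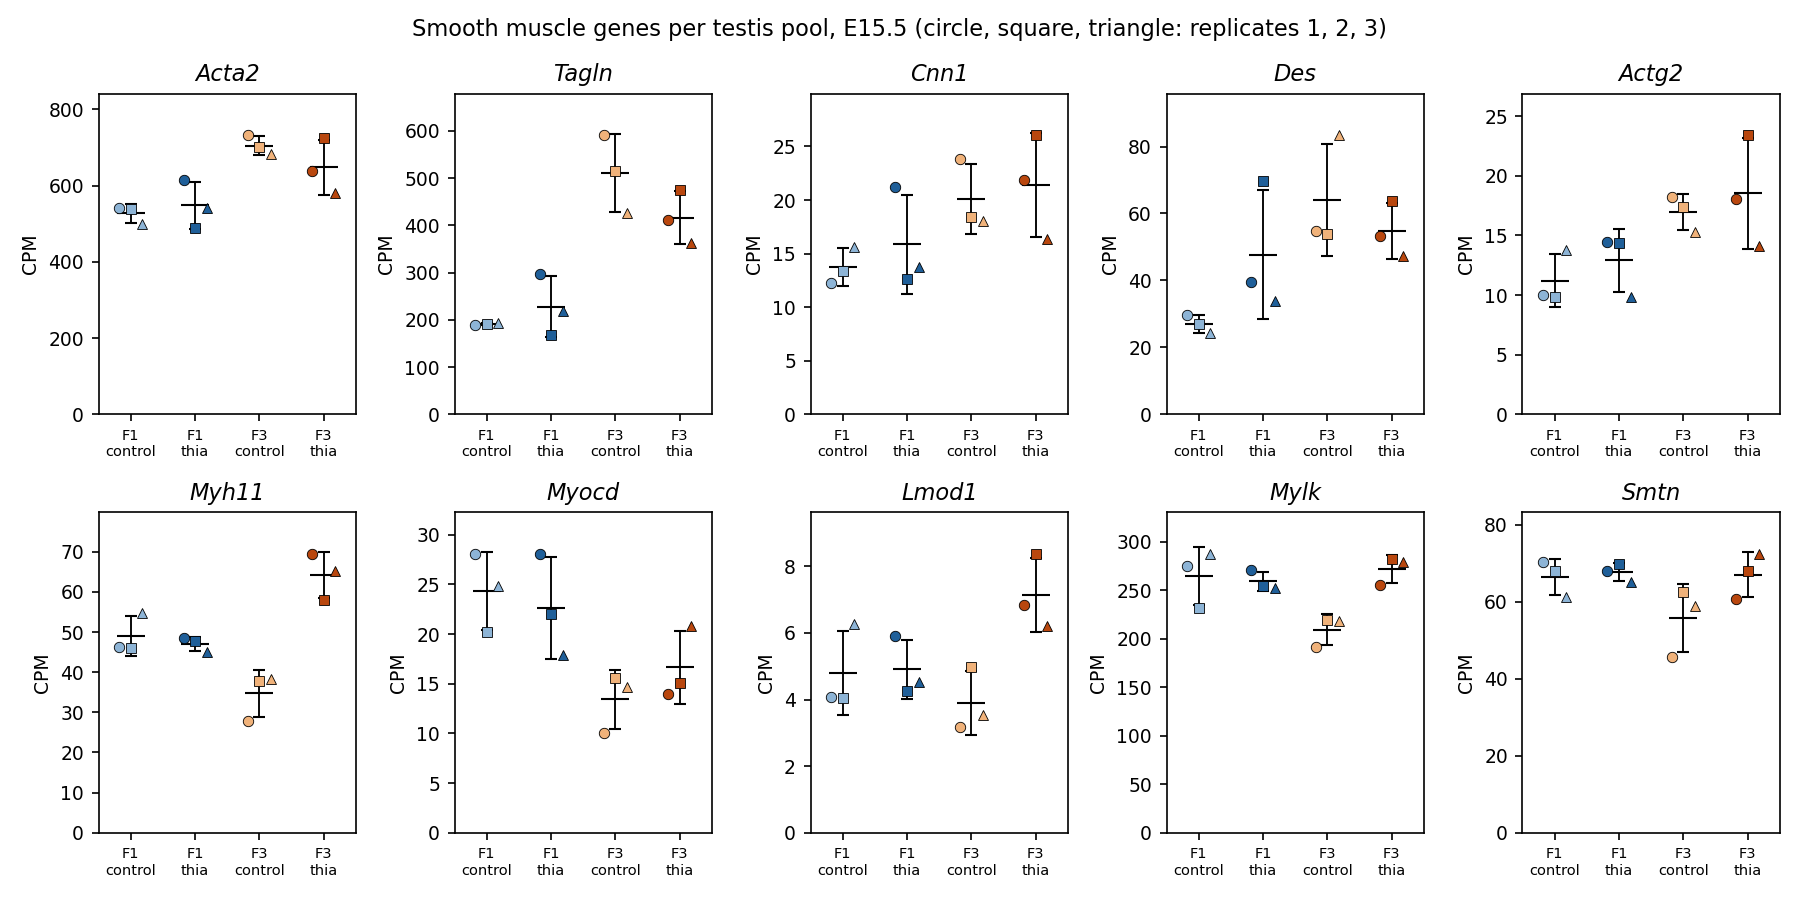
CPM of each member (vertical axis, from 0) in the 12 testis pools by group. Points are pools, the horizontal line is the group mean and the bars are the SD over 3 pools. In the lower row, *Myh11*, *Lmod1* and *Mylk* are higher in every F3 *thia* than in every F3 control pool, whereas in the upper row the 5 members are higher in F3 control than in F1 control pools and overlap between F3 control and F3 *thia*.

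The smooth muscle actins did not follow *Myh11*. *Acta2* was at 541, 539.6 and 499 CPM in F1 control and 614, 489.7 and 541 CPM in F1 *thia*, and at 732, 700.4 and 682 CPM in F3 control and 639, 725 and 582 CPM in F3 *thia*. The groups overlapped within each generation, with a log2 fold change of 0.07 (SE 0.11) in F1 and -0.12 (SE 0.095) in F3. Every F3 control pool was above every F1 control pool, by a log2 fold change of 0.42 (SE 0.10). *Actg2*, the gamma smooth muscle actin, was at 10.0, 9.86 and 13.8 CPM in F1 control and 14.4, 14.4 and 9.85 CPM in F1 *thia*. In F3 its levels were 18.2, 17.4 and 15.3 CPM in control and 18.1, 23.4 and 14.1 CPM in *thia* pools. Both comparisons overlapped, with a log2 fold change of 0.22 (SE 0.18) in F1 and 0.12 (SE 0.18) in F3, the latter -0.08 without *thia* replicate 2.

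Of the members, *Tagln* showed the widest gap between the generations. It was at 189, 191 and 194 CPM in F1 control, close together, and at 297, 167 and 219.5 CPM in F1 *thia*, where the pools spread to both sides of control. F3 control pools held 590.3, 515 and 426 CPM and F3 *thia* pools 412, 474 and 363 CPM. The log2 fold change was 0.27 (SE 0.17) in F1 and -0.29 (SE 0.14) in F3, and F3 control was above F1 control by 1.41 (SE 0.18) on the log2 scale. The F1 value rested on single pools, at 0.03 without *thia* replicate 1, the highest, and 0.45 (SE 0.13) without *thia* replicate 2, the lowest. *Cnn1*, which encodes calponin, an actin-binding protein that restrains the myosin ATPase, was at 12.2, 13.4 and 15.6 CPM in F1 control and 21.2, 12.6 and 13.7 CPM in F1 *thia*. It was at 23.9, 18.4 and 18.1 CPM in F3 control and 21.9, 26.0 and 16.4 CPM in F3 *thia*. Its groups overlapped in both generations, at 0.23 (SE 0.19) in F1 and 0.09 (SE 0.19) in F3 on the log2 scale. These signs turned without the highest *thia* pool, to -0.04 in F1 without replicate 1 and to -0.08 in F3 without replicate 2.

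*Des* encodes the intermediate filament protein desmin, which skeletal muscle also makes. Its level was 29.6, 26.9 and 24.2 CPM in F1 control and 39.5, 69.8 and 33.8 CPM in F1 *thia*, so that the F1 groups did not overlap. The log2 fold change in F1 was 0.84 (SE 0.23), and it was 0.46 (SE 0.13) without *thia* replicate 2. That pool had the highest *Des* of F1 and the 841 CPM of skeletal muscle markers given above, whose part in the result was not tested beyond leaving the pool out. In F3, *Des* was at 54.7, 53.9 and 83.4 CPM in control and 53.3, 63.8 and 47.3 CPM in *thia* pools, which overlapped (log2 fold change -0.23, SE 0.20). Within F3, control replicate 3 held both the highest *Des* and the highest skeletal muscle sum, 421.5 CPM, where the other F3 pools had 138 to 291 CPM. Without that pool the F3 log2 fold change of *Des* was 0.02, so its direction rested on this 1 library.

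**Figure D2:**
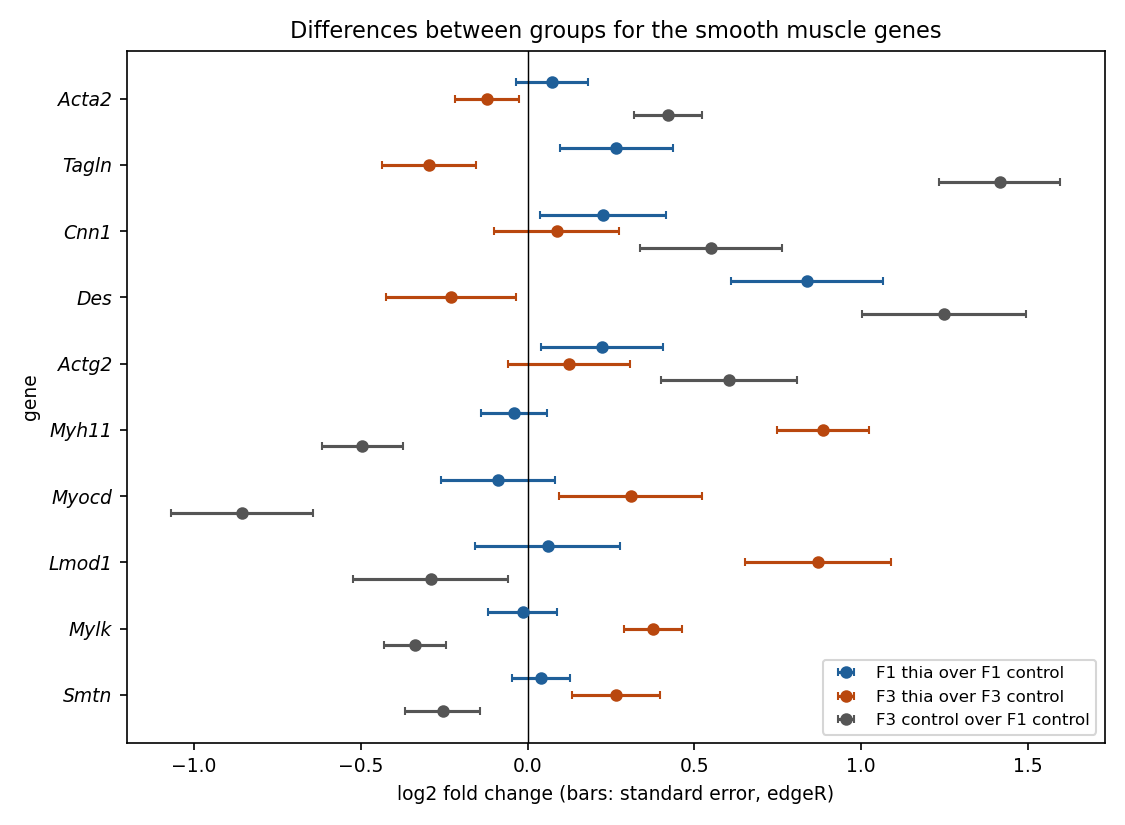
Log2 fold change of each member (horizontal axis) for *thia* over control in F1 and in F3 and for F3 control over F1 control. Points are edgeR estimates and bars are standard errors. *Myh11* and *Lmod1* lie furthest right in F3 at 0.88 and 0.87, *Des* in F1 at 0.84, and *Tagln* and *Des* between the control groups at 1.41 and 1.25.

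In F1, 0 of the 10 members were called at an FDR of 0.15 with edgeR, where 0.0105% of the 19137 genes tested were called, and 0 with the Wald test of DESeq2, where 1.07% of genes were. At an unadjusted p under 0.05 there was 1, *Des*, where 4.63% of all genes were higher and 4.13% lower. Only *Des* had non-overlapping groups, higher in *thia*, where 6.55% of all genes had *thia* pools all above control and 8.45% all below. The median log2 fold change of the members was 0.07, with 7 above 0 and 3 below, beside a median of 0.01 over all genes. In F3, 0 of 10 were called at an FDR of 0.1 and 0.0% of the 18539 genes tested. The smallest adjusted p over all genes was 0.101 (edgeR), just above that limit. *Myh11*, *Mylk* and *Lmod1* had adjusted p = 0.101, 0.107 and 0.114 (edgeR). At an unadjusted p under 0.05 there were 3, *Myh11*, *Lmod1* and *Mylk*, all higher, as were 11.0% of all genes, while 10.0% were lower. These 3 had all *thia* pools above all control pools, as did 13.4% of all genes, and no member had them all below, as did 13.9%. The F3 median of the members was 0.19, again with 7 above 0 and 3 below, and that of all genes was 0.0044. With the Wald test of DESeq2, the same 3 genes were called higher in F3, where 9.54% of the genes with an adjusted p were called higher. In one edgeR fit of all 12 libraries these 3 were called too, and 5.87% of genes were called higher. As these contrasts were used to choose the members, the counts describe them and nothing is read from them.

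The difference between the *thia* effects in F3 and F1 was tested in one fit of the 12 libraries. None of the 10 members was called at an FDR of 0.1, beside 0.0051% of the 19626 genes tested. At an unadjusted p under 0.05 there were 4, *Myh11*, *Des*, *Lmod1* and *Mylk*, beside 14.0% of all genes. The estimated difference, F3 minus F1 on the log2 scale, was 0.94 (SE 0.17) for *Myh11*, 0.83 (SE 0.33) for *Lmod1*, 0.41 (SE 0.13) for *Mylk*, -0.55 (SE 0.25) for *Tagln* and -1.05 (SE 0.34) for *Des*. The other 5 members lay between -0.18 and 0.41.

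Between the control groups, which received no *thia* in either generation, the members differed in both directions. *Tagln*, *Des*, *Actg2*, *Cnn1* and *Acta2* were higher in every F3 control pool than in every F1 control pool, with log2 fold changes of 1.41, 1.25, 0.60, 0.55 and 0.42. *Myocd*, *Myh11* and *Mylk* were lower in every F3 control pool, by -0.86 (SE 0.21), -0.50 (SE 0.12) and -0.34 (SE 0.094). *Lmod1* and *Smtn* overlapped, at -0.29 (SE 0.23) and -0.25 (SE 0.11). Such complete separation was also found in 23.3% of all genes upwards and 25.5% downwards. At an FDR of 0.1, 5 members were called higher and 4 lower (all but *Lmod1*), where 19.9% of all genes were called higher and 22.4% lower. With upper quartile scaling the split of all called genes moved from 3912 higher and 4388 lower to 5016 higher and 3229 lower, while each of the 10 members kept its direction. The call of *Smtn* was made in only 5 of the 19 settings run, and those of *Actg2* and *Cnn1* in 16 each. The labels give neither a batch nor the round of breeding for any pool, so the generation and a batch cannot be told apart.

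The F3 control pools enter both the comparison with F1 control and that with F3 *thia*, so these comparisons share samples and their log2 fold changes are given side by side without a test. *Myh11* stood at -0.50 between the controls and 0.88 for *thia* in F3, *Mylk* at -0.34 and 0.38, *Lmod1* at -0.29 and 0.87, *Myocd* at -0.86 and 0.31 and *Smtn* at -0.25 and 0.26. Among the members higher in F3 control, *Tagln* stood at 1.41 and -0.29, *Des* at 1.25 and -0.23, *Actg2* at 0.60 and 0.12, *Cnn1* at 0.55 and 0.09 and *Acta2* at 0.42 and -0.12.

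A ratio of 2 genes within a library does not depend on how libraries are scaled. The CPM of *Myh11* was 8.54, 8.56 and 11.0% of that of *Acta2* in F1 control and 7.91, 9.75 and 8.34% in F1 *thia*. In F3 it was 3.82, 5.41 and 5.63% in control and 10.9, 8.01 and 11.2% in *thia* pools. The F3 control pools were below every other pool, and the F3 *thia* pools overlapped the F1 pools. *Mylk* was 42.9 to 57.5% of *Acta2* in F1 control and 44.1 to 51.9% in F1 *thia*, then 26.1 to 32.0% in F3 control and 38.9 to 47.9% in F3 *thia*. *Lmod1* was 0.432 to 0.712% of *Acta2* in F3 control and 1.07 to 1.16% in F3 *thia*. For *Tagln* the ratio was 35.0 to 38.8% in F1 control and 34.1 to 48.4% in F1 *thia*. It was 62.5 to 80.7% in F3 control and 62.4 to 65.4% in F3 *thia*, apart by generation and overlapping by treatment.

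**Figure D3:**
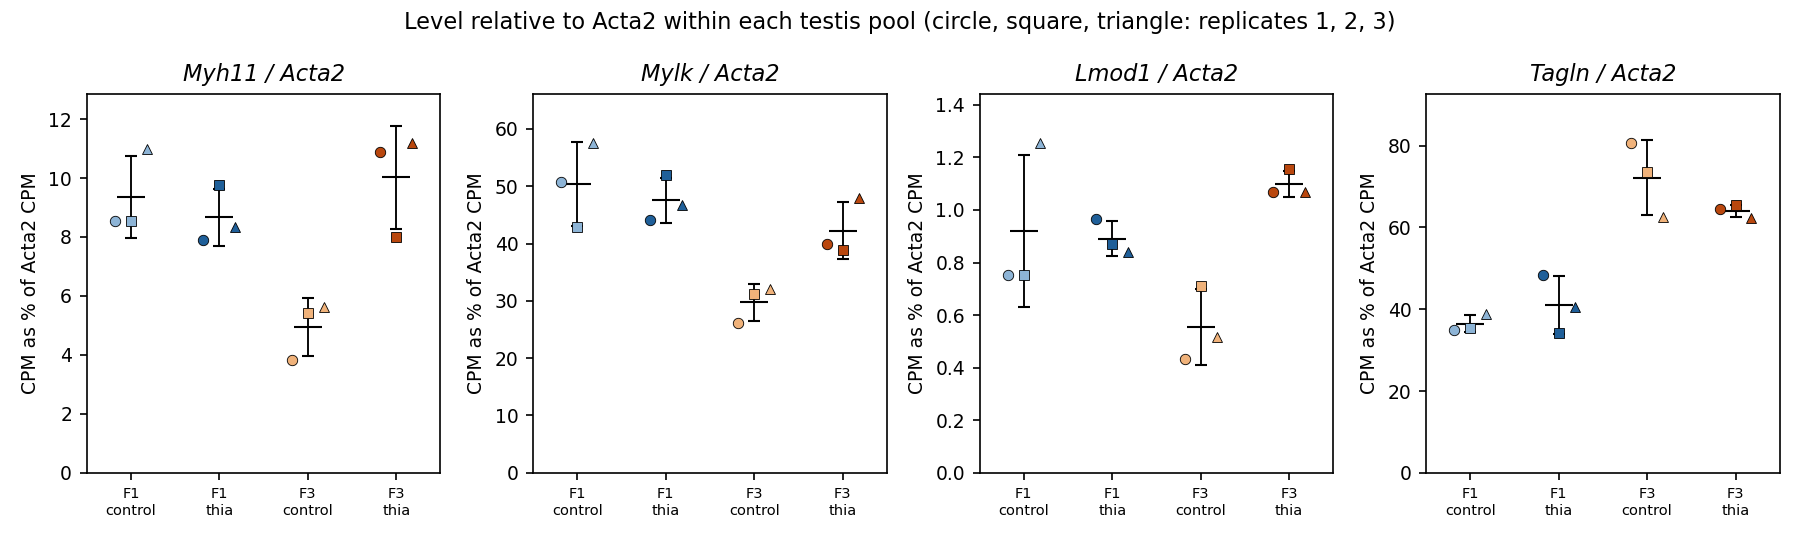
CPM of *Myh11*, *Mylk*, *Lmod1* and *Tagln* as a percent of the *Acta2* CPM of the same pool (vertical axis, from 0), with group means and SD over 3 pools. For *Myh11* the F3 control pools lie at 3.82 to 5.63% and all other pools at 7.91 to 11.2%, while *Tagln* separates F1 from F3 pools.

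Deviations of each pool from its group mean were compared between members, since they do not use the differences between groups. Over the 12 pools, which share their libraries and depth and leave 8 free values after 4 group means, the 45 pairs of members had a mean Pearson r of 0.18, and 29 were above 0. The mean over all pairs of the genes tested in both generations was 0.00155. *Acta2*, *Tagln* and *Cnn1* varied together, with r of 0.87 between *Acta2* and *Tagln*, 0.87 between *Tagln* and *Cnn1* and 0.79 between *Acta2* and *Cnn1*. *Myocd* varied with *Mylk* (r = 0.75) and with *Smtn* (r = 0.71), and *Lmod1* with *Mylk* (r = 0.64). Among the 5 members with a log2 fold change below 0 between the controls, *Lmod1* included, all 10 pairs were above 0, with a mean r of 0.50, and among the 5 higher ones 7 of 10 pairs were, with a mean of 0.33. The 25 pairs across these sets had a mean of -0.01, with 12 above 0. The lowest r was -0.56, between *Des* and *Tagln*.

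**Figure D4:**
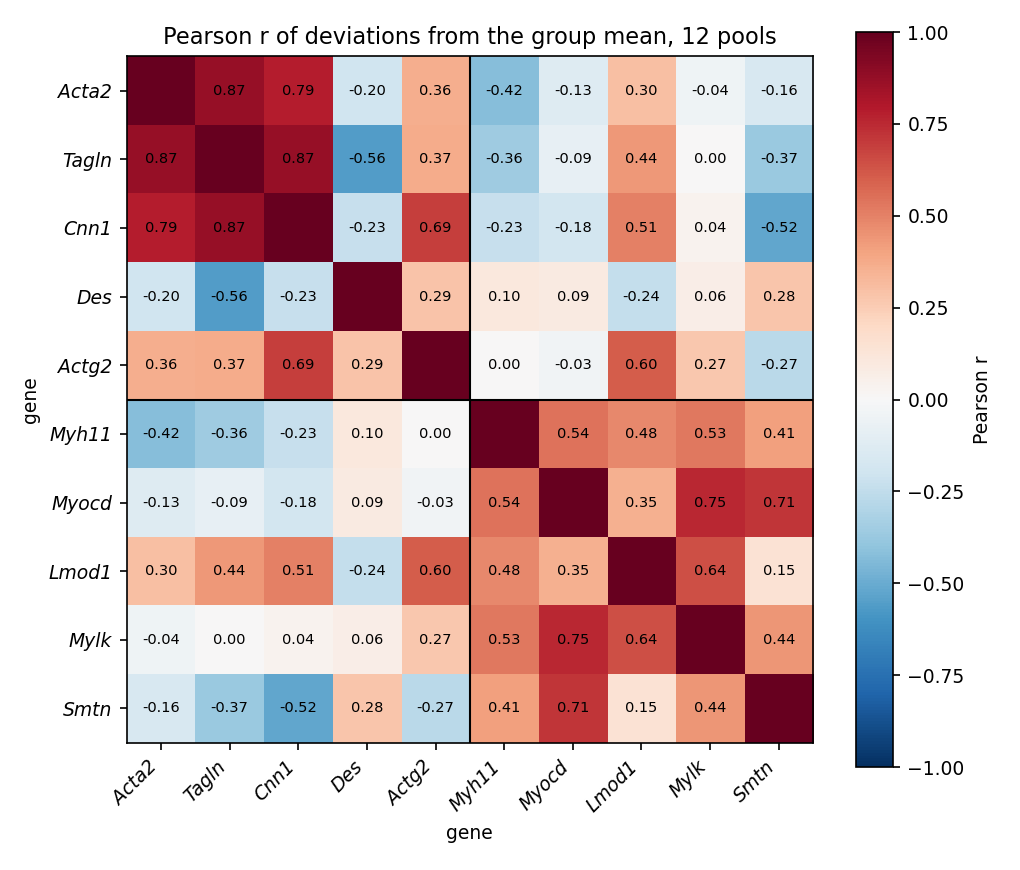
Pearson r between members (both axes list the genes) of deviations of log2 CPM from the group mean over 12 pools, with the value in each cell. Lines divide the members with a log2 fold change of F3 control over F1 control above 0 (first 5) from those below 0. *Acta2*, *Tagln* and *Cnn1* form a block at 0.79 to 0.87, and the lower right block lies between 0.15 and 0.75.

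The 10 genes outside the list whose deviations were most like the mean profile of the members were *Ttbk2*, *Gm35959*, *Hist1h2bg*, *Thsd4*, *Pgbd1*, *Cbl*, *Stard13*, *Rad51ap1*, *Gm42127* and *Bbs12*. Their Pearson r was 0.90 to 0.94 over 12 pools. They were picked as the highest r among 18219 genes compared. How high an unrelated gene would reach in such a pick was not tested, so nothing is read from the list. The members themselves ranged from 0.12 for *Des* to 0.83 for *Lmod1*, and each of them is part of the mean profile it was compared with. Without F1 *thia* replicate 2, 6 of the 10 genes were kept, and with Spearman correlation 5. Leaving out F1 *thia* replicate 1 and F3 *thia* replicate 2, the pools farthest from the median of the profile, moved their r to between 0.60 and 0.96 and that of the members to between -0.40, for *Acta2*, and 0.87, for *Lmod1*. *Tagln* went from 0.43 to -0.20 and *Cnn1* from 0.54 to 0.01, so the likeness of these 3 members to the mean profile rested on those 2 pools.

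Companion lists of the same pathway were written from general knowledge, with earlier results of these data known, and hold no member. The tubule wall list had 23 genes for basement membrane, matrix and its receptors. With each generation fitted apart, edgeR called none in either, but in F3 all 23 had a log2 fold change above 0, with a median of 0.39, and 14 had an unadjusted p under 0.05, all higher, as were 11.0% of all genes. *Lamc1*, a laminin chain, went from 192 ± 20.1 CPM in F3 control to 311 ± 24.4 CPM in F3 *thia* (SD, n = 3), a log2 fold change of 0.69 (SE 0.10, adjusted p = 0.101, edgeR). *Lama4*, the laminin chain of vessel and muscle basement membranes, had a log2 fold change of 0.79 (SE 0.13) and *Nid1*, the laminin-binding nidogen, 0.54 (SE 0.10), with adjusted p = 0.104 and 0.105 (edgeR). All 3 genes, picked for the smallest p of the list, were higher in every F3 *thia* than in every F3 control pool, as were 13.4% of all genes. In one edgeR fit of the 12 libraries 12 of the 23 were called higher and none lower, where 5.87% of all genes were called higher, and without F3 *thia* replicate 2 it was 9, where 4.23% were. In F1, 5 of 23 genes were higher at an unadjusted p under 0.05 and none lower, where 4.63% of all genes were higher and 4.13% lower. The smallest p values were those of *Itga7*, an integrin of muscle cells, at 0.82 (SE 0.21), *Eln*, elastin, at 0.37 (SE 0.13) and *Dcn*, decorin, at 0.28 (SE 0.098).

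Genes that regulate contraction, 25 in number, were counted next, among them ion channels and myosin phosphatase subunits. In F3, 0 were called with edgeR, 12 were higher and 3 lower at an unadjusted p under 0.05, where 11.0% of all genes were higher and 10.0% lower, and the median log2 fold change was 0.25. The 3 lower genes were near the share over all genes. *Kcnma1*, a calcium-activated potassium channel, was at 9.26 ± 1.35 CPM in control and 18.1 ± 2.56 CPM in *thia* (SD, n = 3), a log2 fold change of 0.96 (SE 0.16, adjusted p = 0.104, edgeR). *Ppp1r12b*, a myosin phosphatase targeting subunit, stood at 0.38 (SE 0.074) and *Itpr1*, a calcium release channel, at 0.52 (SE 0.14). In F1, 0 were higher and 1 lower at that level, *Ppp1cb*, a phosphatase catalytic subunit, at -0.33 (SE 0.14). Of all genes, 4.63% were higher and 4.13% lower in F1, so the 1 lower gene was near that share.

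Other cytoskeletal and contractile genes, 29 in all, gave 0 calls in F3, 8 higher and 3 lower at an unadjusted p under 0.05, and a median of 0.07. Of all genes, 11.0% were higher and 10.0% lower, and the 3 lower genes were again near that share. The smallest p values belonged to *Pdlim3*, at 194 ± 22.6 CPM in control and 286 ± 20.9 CPM in *thia* (log2 fold change 0.56, SE 0.11), and to *Tln1* at 0.57 (SE 0.13) and *Vcl* at 0.39 (SE 0.099). Talin and vinculin link actin to integrins. In F1, *Vim* at 0.28 (SE 0.10) and *Ckb* at 0.24 (SE 0.095) were the 2 genes higher at that level, and none was lower. These counts were near the 4.63% of all genes higher and 4.13% lower in F1. Of 23 other smooth muscle genes, 3 were higher and 1 lower in F3, near or under the 11.0% and 10.0% of all genes. *Aoc3*, an amine oxidase of vessel walls, had a log2 fold change of 1.10 (SE 0.24), from 28.2 ± 6.70 to 60.2 ± 17.1 CPM, *Tns1* of 0.51 (SE 0.12) and *Itga8*, an integrin of mesenchymal cells, of -0.40 (SE 0.10). In F1 this list had 2 higher and 1 lower of 22 tested, again near those shares of all genes. Among them was *Ptgis*, prostacyclin synthase, at 0.51 (SE 0.086, adjusted p = 0.201, edgeR).

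Regulators of smooth muscle genes other than *Myocd*, 25 in number, gave 5 higher and 0 lower in F3 at an unadjusted p under 0.05, beside the 11.0% and 10.0% of all genes, with a median of 0.12. *Mef2d* was at 0.32 (SE 0.094), and the myocardin-related factors *Mkl1* and *Mkl2* were at 0.30 (SE 0.092) and 0.28 (SE 0.11). In F1 none passed that level. Signals known to act between Sertoli and myoid cells, 19 genes of the hedgehog, PDGF and TGF-beta pathways with the androgen receptor, gave 10 higher and 1 lower in F3, beside the same shares of all genes, with a median of 0.34. The hedgehog receptor *Ptch1*, itself a target of the pathway, was at 90.4 ± 9.54 CPM in F3 control and 139 ± 19.1 CPM in F3 *thia*, a log2 fold change of 0.62 (SE 0.12). *Pdgfra* was at 0.46 (SE 0.10) and *Tgfb1* at 0.33 (SE 0.080), and no gene of the list passed that level in F1. *Ptch1* and *Pdgfra* also mark interstitial progenitors, and *Pdgfrb*, in this list, mural cells. Over these 6 lists, edgeR called no gene with each generation fitted apart, but did so under other settings. In one fit of the 12 libraries, where 5.87% of all genes were called higher and 3.99% lower in F3, it called 7 higher and 1 lower of the signals, 6 higher of the genes that regulate contraction, 6 of the cytoskeletal genes, 3 of the other smooth muscle genes and 2 of the regulators, with none lower in these. Without the low-count filter, where 1.19% of all genes were called higher in F3, it called 8 tubule wall genes, 3 signals, 3 cytoskeletal genes, 2 genes that regulate contraction and 2 other smooth muscle genes, all higher. In F1 that setting called *Ptgis* and *Itga7* higher, as it did 0.44% of all genes. With DESeq2 in F3, where 9.54% of all genes were called higher and 5.95% lower, 14 genes of the tubule wall list were called higher and none lower. The calls were 9 higher and 2 lower among genes that regulate contraction, 9 higher and 1 lower among the signals, and 7 higher and 1 lower among cytoskeletal genes. Among other smooth muscle genes they were 3 higher and 1 lower, and among the regulators 2 higher and none lower. In F1 DESeq2 called *Ptgis* and *Itga7* of these lists higher, where it called 1.07% of all genes in either direction, so nothing is read from these 2.

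Markers of other cell types also differed between control and *thia* pools. In F1, 4.63% of all genes were higher and 4.13% lower at an unadjusted p under 0.05. At that level 7 of 10 germ cell markers were lower and none higher. Of the 10, 1 was called lower with edgeR and 4 with DESeq2, where 0.0105% and 1.07% of all genes were called. The sum over the 10 was 1339 to 1896 CPM in control and 1281 to 1439 CPM in *thia* pools. Of 8 markers of mesonephric epithelium, which lies against the testis at dissection, 5 were higher. The sum over the 8 was 92.4 to 110.6 CPM in control and 118.9 to 155.3 CPM in *thia*. Also higher were 4 of 16 skeletal muscle markers and 2 of 12 mural cell markers. The skeletal muscle sum was 73.9 to 151.6 CPM in control and 110.9, 841 and 77.8 CPM in *thia* replicates 1 to 3. Only *thia* replicate 2 lay above the control range. These marker values stand beside the F1 values of *Des* and of the 5 tubule wall genes, and their part was not tested. In F3, 11.0% of all genes were higher and 10.0% lower at an unadjusted p under 0.05. The sum over 10 endothelial markers was 234 to 257 CPM in F3 control and 316 to 375 CPM in F3 *thia* pools, with 8 of 10 markers higher and 1 lower at that level. That of 12 mural cell markers, which cover vessel smooth muscle and pericytes, was 329 to 389.9 CPM in control and 411.5 to 534.5 CPM in *thia*, with 6 of 12 higher. Fetal Leydig cell markers, 8 in number, summed to 2732 to 4428 CPM in control and 4919 to 8821 CPM in *thia*, with 4 higher. Vessel walls express the members too, so these sums stand beside the F3 values of *Myh11*, *Lmod1* and *Mylk*, and their part in the result was not tested. Of the remaining lists in F3, 2 of 10 Sertoli cell markers and 4 of 8 interstitial progenitor markers were higher, 4 of 10 germ cell markers were lower, and 1 skeletal muscle marker was higher and 3 lower at that level. The higher Sertoli and skeletal muscle markers and the lower endothelial marker were near or under the shares of all genes. No marker of any list was at 0 in any group.

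Between the control groups, the sum over 6 mesothelial markers was 339 to 384.9 CPM in F1 and 692 to 816 CPM in F3, with 5 of 6 called higher with edgeR. Of all genes, 19.9% were called higher between these groups and 22.4% lower. The 10 Sertoli cell markers summed to 2087 to 2465 CPM in F1 control and 1055 to 1484 CPM in F3 control, with 1 called higher and 7 lower, and the endothelial ones to 316 to 379.6 and 234 to 257 CPM, with 1 called higher and 8 lower. The mural cell sum was 471 to 540.3 CPM in F1 control and 329 to 389.9 CPM in F3 control, with 1 called higher and 6 lower. The skeletal muscle sum was 73.9 to 151.6 CPM in F1 control and 160.3 to 421.5 CPM in F3 control, with 6 of 16 called higher and none lower. Of 8 interstitial progenitor markers, 2 were called higher and 4 lower. Of 8 fetal Leydig cell markers, 1 was called lower. Of 10 germ cell markers, 6 were called lower, and their sum was 1339 to 1896 CPM in F1 control and 827 to 1307 CPM in F3 control. Of 8 markers of mesonephric epithelium, 2 were called higher, with sums of 92.4 to 110.6 CPM in F1 control and 147 to 190.5 CPM in F3 control. Counts of 1 or 2 markers called were near or under the shares of all genes. The mesothelial, skeletal muscle and mesonephric epithelium sums were higher in F3 control, as were *Tagln*, *Des*, *Actg2*, *Cnn1* and *Acta2*. The Sertoli, endothelial, mural and germ cell sums were lower, as were *Myocd*, *Myh11* and *Mylk*. The part of these sums in the values of the members was not tested.

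**Figure D5:**
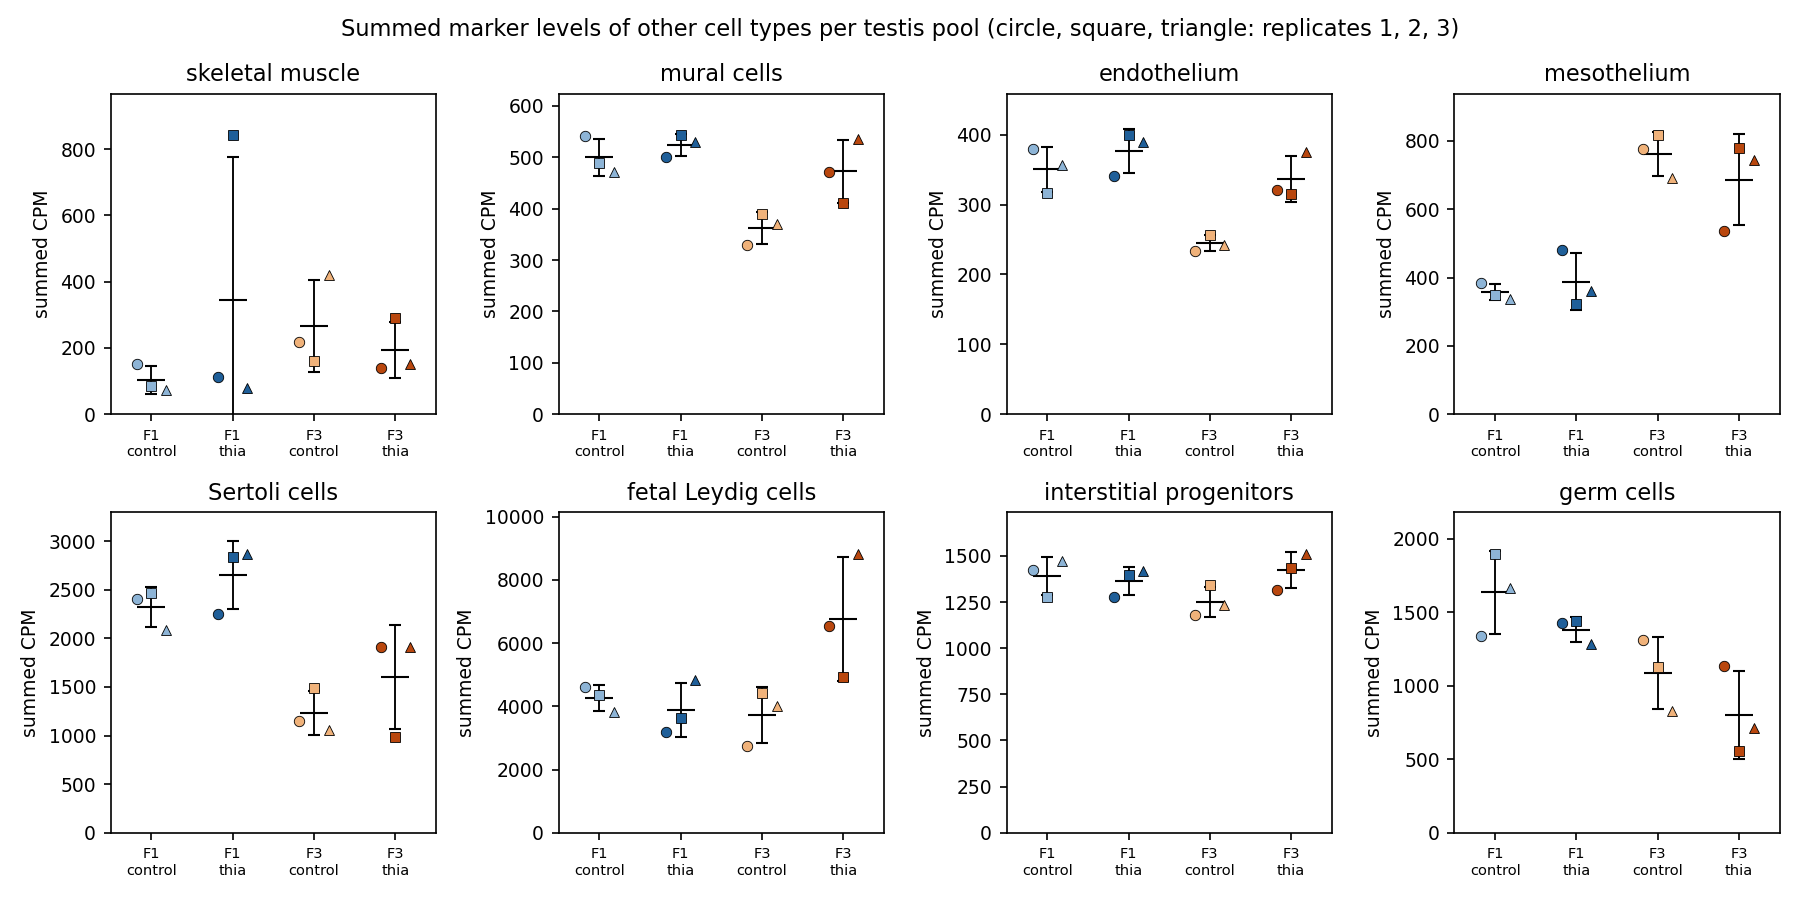
Summed CPM of the marker genes of 8 other cell types (vertical axis, from 0) in the 12 pools, with group means and SD over 3 pools (the lower bar of skeletal muscle in F1 *thia* is cut at 0). F1 *thia* replicate 2 stands out at 841 CPM of skeletal muscle markers, and endothelial markers lie at 234 to 257 CPM in F3 control and 316 to 375 CPM in F3 *thia* pools.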

How the data were processed

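RNA-seq of 12 pools of E15.5 testes was used, 3 each of F1 control, F1 *thia*, F3 control and F3 *thia*, grouped by the titles in the labels. The deposited values are raw counts per gene symbol, which the authors made from stranded paired-end libraries by alignment to mm10 (HISAT2 2.1.0) and featureCounts on the refGene annotation. Whether read pairs were counted, and with which strand option, is not given in the sources used here. The labels do not say whether pools shared litters, so p-values measure the spread between these pools. The members and lists were chosen with earlier results of these data known.

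Counts were fitted in R 4.3.3 with edgeR 4.0.16 (filterByExpr at a minimum count of 10, TMM, quasi-likelihood test, Benjamini-Hochberg adjustment). The FDR was 0.15 for F1 and 0.1 elsewhere, and the standard error was the log2 fold change over the root of the F statistic. F1 and F3 were fitted apart, and the difference of effects and the control groups in one fit of 12 libraries. Levels per kilobase used the union of exons in GENCODE M21 (GRCm38), and log2 CPM a prior count of 2. With 3 pools against 3, no exact permutation test of a single value was run, since its smallest two-sided p is above 0.05.

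The text names all 10 members, at most 3 genes with the smallest p per companion list and generation, the 10 genes most like the members, and at most 2 genes per marker list. Alternatives were the Wald test of DESeq2 1.42.0, its size factors in edgeR, no low-count filter, a filter of 10 counts in each library, upper quartile scaling, one fit for the 12 libraries, a stricter FDR of 0.05, a replicate block, removal of single libraries, and transcript instead of exon length. The fits were tested on simulated data. Python 3.11.15 was used for tables and plots.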

Additional observations from a re-analysis of the deposited data

Results flagged for a closer look

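In 2 of the named genes all *thia* pools lay below control in F1 and above it in F3. Of all genes tested, 8.45% had them all below in F1 and 13.4% all above in F3. The share with both was not counted, so nothing is read from these 2 genes. *Ppp1r12a*, a myosin phosphatase targeting subunit, was at 69.1 to 86.9 CPM in F1 control and 63.1 to 67.7 CPM in F1 *thia*, and at 42.6 to 51.1 CPM in F3 control and 52.0 to 65.5 CPM in F3 *thia*. The log2 fold change was -0.21 (SE 0.10) in F1 and 0.30 (SE 0.11) in F3, and their difference of 0.52 (SE 0.16) was not called in one fit of the 12 libraries (adjusted p = 0.252, edgeR). *Cbl*, an E3 ubiquitin ligase and one of the genes most like the members, was at 36.9 to 39.2 CPM in F1 control and 29.5 to 34.7 CPM in F1 *thia*, and at 29.5 to 32.9 CPM in F3 control and 33.8 to 36.2 CPM in F3 *thia*. Its difference between F3 and F1 was 0.43 (SE 0.12, adjusted p = 0.248, edgeR).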

How the results depend on the processing

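In F1, the number of genes called moved from 2 to 243 without the low-count filter, 199 with DESeq2 and 0 in one fit of 12 libraries, and was 0 to 20 when single libraries were left out. *Des* was the 1 member called without the filter, and no member was called in the other F1 settings. In F3, the number moved from 0 to 520 with upper quartile scaling, 569 without the filter, 333 with at least 10 counts in every library, 2288 with DESeq2 and 1936 in one fit of 12 libraries, and was 0 to 1294 when single libraries were left out, with 1294 without F3 *thia* replicate 2. Members called in F3 numbered 1 with upper quartile scaling (*Myh11*), 2 without the filter (*Myh11* and *Mylk*), 1 with at least 10 counts in every library (*Myh11*), 3 with DESeq2, 3 in one fit of 12 libraries, and 0 to 1 when single libraries were left out, the 1 being *Myh11* without *thia* replicate 2. The difference between generations gave 1 gene, 634 with DESeq2 (among them 2 members, *Des* and *Myh11*), 0 with the replicate block and 0 to 4 when single libraries were left out. The median log2 fold change of the members in F3 was 0.089 to 0.24 when single libraries were left out, the lowest without *thia* replicate 2, and that in F1 was -0.03 to 0.16. In F3 the smallest adjusted p was 0.101 in the main fit, 0.0896 with upper quartile scaling and 0.0960 with at least 10 counts in every library (edgeR). These values lie close to the FDR of 0.1, on either side of it. The causes of the moves between settings were not tested.

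The labels do not say whether equal replicate numbers pair the samples. Deviations of same-numbered pools correlated at -0.04, -0.04 and 0.03 in F1 and 0.20, -0.37 and -0.24 in F3. With 3 pools in a group, these values cannot settle whether pools were paired. With the replicate block, 3 genes were called in F1 and 0 in F3, no member was called in either, and the members' medians were 0.07 and 0.19. The control groups gave 8 members called with the block and 9 without it. In every setting the log2 fold change of each member moved by less than the SD between replicates. Leaving out 1 of 3 pools can hardly move a group mean by more than that SD, so nothing is read from this limit for those settings. The log2 fold change of a member changed sign in 14 of 130 values in F1 and 3 of 130 in F3. In F1 these were *Mylk* in 5 settings, *Lmod1* in 3, *Myocd* in 2 and *Acta2*, *Cnn1*, *Myh11* and *Smtn* in 1 each, with main values between -0.09 and 0.23. In F3 they were *Actg2*, *Cnn1* and *Des*, each in 1. Of these, 16 came from leaving out 1 library and 1, for *Mylk*, from upper quartile scaling. The order of levels over the 12 libraries was the same with transcript length. *Lmod1*, at 102 to 415 counts in a library, had the least depth of the members.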
